A study of Mus musculus with 6 samples.

Results

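The ADAM, ADAMTS and ADAMTS-like genes of T1 and T2 tumor cells are described here. They were taken by symbol (Adam, Adamts or Adamtsl, a number and at most 1 letter), which gave 57 of the 24129 gene names in the table, 33 Adam, 19 Adamts and 5 Adamtsl genes. ADAM proteins are anchored in the cell membrane, and the catalytic ones cut the outer part off growth factors, receptors and adhesion molecules, a step called shedding. ADAMTS proteins are secreted relatives with thrombospondin repeats that cut proteoglycans, procollagens and other proteins of the extracellular matrix, while ADAMTS-like proteins share the repeats but have no protease domain. In mammary tumors both families are known for releasing EGF receptor ligands and for remodelling the matrix, and many other ADAM genes are used mainly in sperm.

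T1 and T2 cells both descend from 4T1GFP, a GFP-tagged mammary carcinoma line of BALB/c mice, and were separated by GFP from a fibroblast culture sorted out of a primary tumor, in which tumor cells had outgrown the fibroblasts. T1 cells (4T1A in the labels) had low GFP, grew attached with an epithelial shape and were aggressive in mice, whereas T2 cells (4T1NA) had high GFP, grew round and loosely attached and were less aggressive. Each population is a single sorted culture grown in DMEM/F-12 with serum, T2 cells being passaged without trypsin, and poly(A) RNA of 3 replicates of each was sequenced. The comparison asks which of these genes differ between the 2 populations, and the parental line was not analysed here. The libraries held 18133227 to 20839686 reads on genes, and 1 read was worth 0.928 to 1.06 normalized counts (reads divided by the size factor of the library). In bulk RNA, fewer cells of a type and less RNA per cell cannot be told apart.

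Epithelial markers summed to 67096 to 73702 normalized counts in T1 and 37484 to 43412 in T2 libraries. Of these markers, 4 of 6 were higher in T1 cells, where 25.1% of all genes compared were. Epcam and Cdh1 were both far lower in T2 cells. Epcam had 2989, 2931 and 3502 in T1 and 37.2, 30.7 and 36.2 in T2 libraries. Cdh1 had 13726, 15461 and 15057 in T1 and 484, 459.7 and 453 in T2 libraries. Krt14 and Krt19 were also higher in T1 cells, while Krt8 and Krt18 did not pass the test. Krt8 had means of 22067 in T1 and 19195 in T2 cells (limma adjusted p = 0.0534). Krt18 had means of 23275 and 21658 (limma adjusted p = 0.394). Fibroblast markers, of interest because fibroblasts express many Adamts genes, summed to 225 to 241 in T1 and 997 to 1295 in T2 libraries, of which Pdgfra, the marker of the fibroblast sort, was 191 to 206 and 996 to 1295, with 0 reads of Col3a1, Pdgfrb and Lum in every library. The collagen markers ran the other way, Col1a1 with 14, 30 and 25 reads in T1 and 1, 0 and 0 in T2 libraries (limma adjusted p = 4.94e-05) and Col1a2 with 4, 7 and 12 reads in T1 and 0 in T2 libraries. Leukocyte markers summed to 385 to 463 in T1 and 166 to 203 in T2 libraries, with Tyrobp at 0. Cd14 was the leukocyte marker higher in T1 cells, at a mean of 340.2 against 83.1, while the means of Cd68 (72.9, 94.6), Coro1a (1.55, 5.67) and Ptprc (0, 4.61) were larger in T2 libraries. Endothelial markers summed to at most 5.29. The part of these markers in the results was not tested.

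Of the 57 genes, 22 (38.6%) had a mean of at least 10 normalized counts and were compared, against 47.7% of all genes. A further 24 (42.1%, against 34.9% of all genes) had no read in any library. These were Adam1b, Adam2, Adam6a, Adam6b, Adam7, Adam20, Adam23, Adam24, Adam25, Adam26a, Adam26b, Adam28, Adam29, Adam30, Adam34, Adam39, Adamts2, Adamts3, Adamts15, Adamts18, Adamts19, Adamts20, Adamtsl1 and Adamtsl2. Another 11 had some reads but too few to compare. Among them, Adam33, a membrane ADAM, had 3, 0 and 2 reads in T1 and 11, 7 and 17 in T2 replicates 1 to 3, and passed the test only when the filter on low counts was dropped (limma adjusted p = 0.00493). Adam22, an adhesion protein of neurons, had 6, 11 and 8 reads in T1 and 0, 4 and 9 in T2. The other 9 (Adam4, Adam5, Adam18, Adam21, Adam32, Adamts12, Adamts13, Adamts16 and Adamts17) had at most 9 reads in a library.

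RefSeq windows of 300 bases around the start site (build GRCm38.p6) were found for 31 of the 57 genes, 12 of them compared. Short motifs, chosen after the values were seen, were searched on both strands, and capitals mark them. They were TGANTCA (a pattern wider than the AP-1 site, since N is any base), TATAAA (the TATA box) and GGGCGG (the GC box). Adamts1 is shown as the most abundant Adamts gene of T1 cells, Adam19 and Adamtsl4 as genes higher in T2 cells, and Adam25 as a silent gene of the sperm type.
Adamts1 chr16:85803064-85803363 (minus strand): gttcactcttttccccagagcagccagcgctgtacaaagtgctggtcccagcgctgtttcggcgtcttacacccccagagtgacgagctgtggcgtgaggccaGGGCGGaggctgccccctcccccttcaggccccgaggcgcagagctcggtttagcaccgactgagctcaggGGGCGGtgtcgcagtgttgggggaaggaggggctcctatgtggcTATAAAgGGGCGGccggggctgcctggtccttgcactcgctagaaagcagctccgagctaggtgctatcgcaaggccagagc
Adam19 chr11:46055734-46056033 (plus strand): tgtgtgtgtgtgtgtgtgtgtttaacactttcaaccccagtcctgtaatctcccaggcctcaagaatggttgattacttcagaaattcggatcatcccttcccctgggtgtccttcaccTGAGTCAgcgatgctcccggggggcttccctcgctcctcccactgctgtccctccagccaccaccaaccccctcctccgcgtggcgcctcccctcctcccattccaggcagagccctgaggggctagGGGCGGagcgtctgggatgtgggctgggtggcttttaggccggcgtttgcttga
Adamtsl4 chr3:95687868-95688167 (minus strand): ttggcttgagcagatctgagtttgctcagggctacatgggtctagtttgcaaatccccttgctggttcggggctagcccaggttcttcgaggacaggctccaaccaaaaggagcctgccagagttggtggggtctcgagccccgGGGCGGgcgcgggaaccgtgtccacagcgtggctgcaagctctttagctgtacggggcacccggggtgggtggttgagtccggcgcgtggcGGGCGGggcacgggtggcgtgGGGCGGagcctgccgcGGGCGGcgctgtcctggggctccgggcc
Adam25 chr8:40751958-40752257 (plus strand): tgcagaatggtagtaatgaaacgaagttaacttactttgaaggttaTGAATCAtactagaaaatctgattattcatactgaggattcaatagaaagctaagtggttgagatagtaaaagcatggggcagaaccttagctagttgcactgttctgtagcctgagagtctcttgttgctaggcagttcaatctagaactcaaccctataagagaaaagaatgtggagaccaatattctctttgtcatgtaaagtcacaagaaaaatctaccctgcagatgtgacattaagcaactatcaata
The Adamts1 window held TATAAA starting at position -32 from the start site and 3 GC boxes, none overlapping it. The Adam19 window shown, the one nearest the annotated gene start, held TGANTCA at -131, as TGAGTCA. Other Adam19 windows, with start sites 1490 and 71912 bases from the annotated gene start, held none of the motifs. The Adamtsl4 window held 4 GC boxes and neither of the other motifs. The match in the Adam25 window read TGAATCA, which is not the AP-1 site. GGGCGG occurred in 11 of the 12 windows of compared members, in both windows of genes higher and in all 8 of genes lower in T1 cells. It occurred in 35.7% of all 32851 windows, whether or not the gene was expressed. Among members without a read, the windows of Adamts2, Adamts3, Adamts18, Adamts20 and Adamtsl2 held it, and none of the 9 Adam windows did. TATAAA occurred in 1 of 12 (13.6% of all windows) and TGANTCA in 1 of 12 (7.81%). A match describes letters and shows neither binding nor use.

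The ratio of observed to expected CpG had a median of 0.740 in the 12 compared windows. It was 0.384 in all windows, whether or not the gene was expressed. The 14 windows of members without a read had a median of 0.105, but they fell apart by family. The median was 0.101 in 9 silent Adam genes and 0.917 in 4 silent Adamts genes. Adam23, a neuronal adhesion protein with 0.879, was the silent Adam gene unlike the rest. Low CpG was common among the silent Adam genes and not among these few silent Adamts genes, as the plot of CpG against expression shows. It was not limited to silent Adam genes, since Adam8 had 0.294 and a mean of 1511 normalized counts. Windows of Adam20 and Adam25, and of Adam6a and Adam6b, are near copies, so the 9 are not independent. The start sites used for Adamts20, Adam34 and Adam1a lay 61068, 44489 and 23787 bases from the annotated gene start. Their windows may therefore not be the promoters of these genes. No test was made of these windows.

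**Figure D1:**
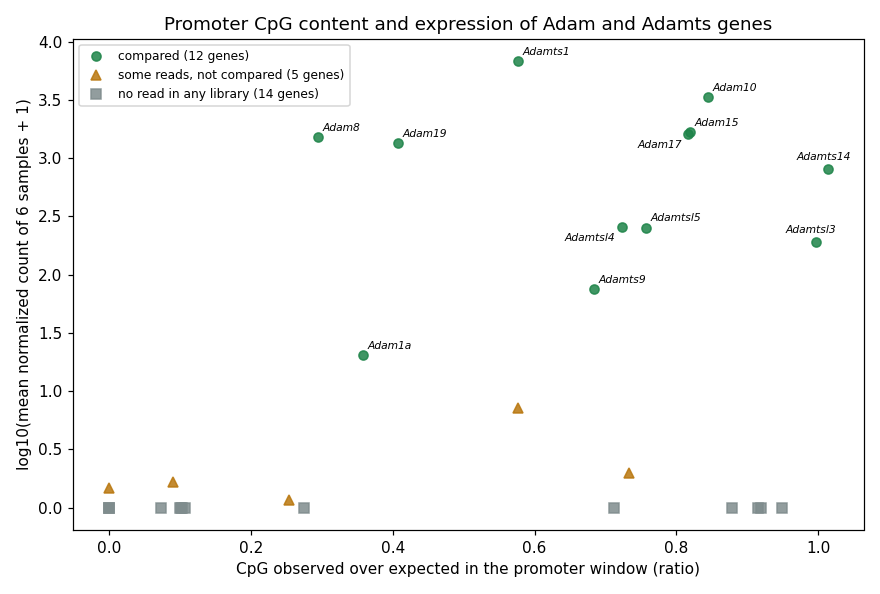
Each point is 1 gene with a RefSeq promoter window, with the CpG observed over expected ratio on the x axis and log10(mean normalized count + 1) of the 6 samples on the y axis, and colors for genes compared, with some reads, or with no read. Silent genes lie both near 0 and above 0.7 on the x axis.

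Past an adjusted p under 0.01 were 18 of the 22 members (limma with Benjamini-Hochberg adjustment over 11514 genes). Higher in T1 cells were 7 (31.8%), where 25.1% of all genes compared were, and lower were 11 of 22, where 24.4% were. With the further condition of an absolute log2 fold change above 2, 4 were higher (18.2%, against 4.17% of all genes) and 4 lower (18.2%, against 4.20%). The T1 and T2 values did not overlap in 19 of 22 genes (86.4%, against 68.1%). The median absolute log2 fold change was 1.55 among these genes and 0.453 among all genes compared, and the median signed value was -0.57 against -0.01. By family, T1 cells had higher values for 2 and lower values for 4 of 10 Adam genes, for 4 and 5 of 9 Adamts genes, and for 1 and 2 of 3 Adamtsl genes. Log2 fold changes below are T1 minus T2 on log2(normalized count + 1), a scale that shrinks the change of weakly expressed genes. Values given as -fold are ratios of means and can differ from them.

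**Figure D2:**
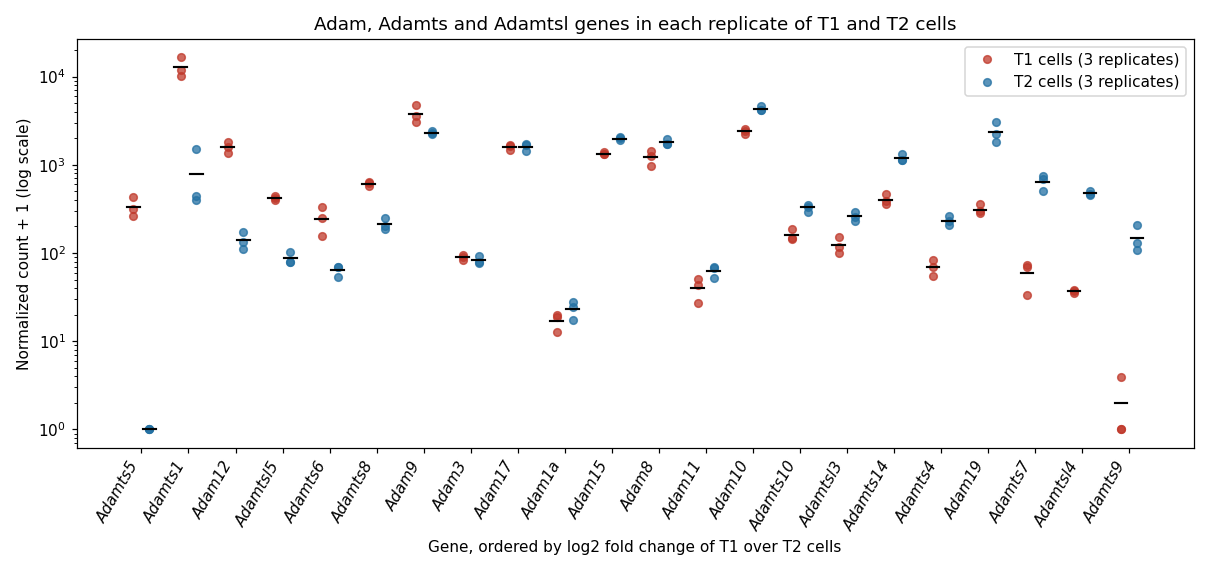
Normalized counts of the 22 compared genes in each of the 3 T1 and 3 T2 replicates on a log scale, 1 point per library. Adamts5 had no read in T2 cells, and Adamts1 had 1 T2 library well above the other two.

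**Figure D3:**
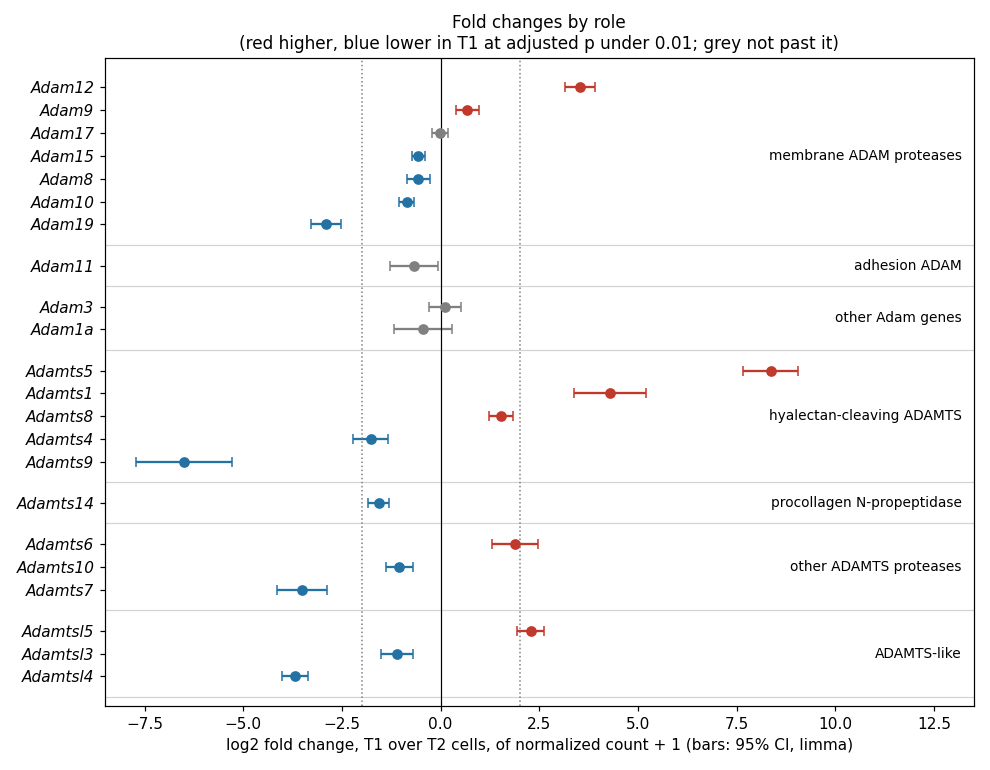
Log2 fold change of T1 against T2 with its 95% interval for each compared gene, grouped by role, values above 0 being higher in T1 cells. Both directions occur within the membrane ADAM and the hyalectan-cleaving ADAMTS genes.

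The membrane sheddases differed in which genes made up their sum. Their summed level per kb of exon was 2300.5 ± 319 normalized counts in T1 and 2730 ± 97.7 in T2 cells (SD, n = 3). Of the 7 compared, 2 were higher and 4 lower in T1 cells, against 25.1% and 24.4% of all genes compared. Adam12 (meltrin alpha; chromosome 7, 133883199 to 134232146, minus strand, build mm10) had 1345, 1613 and 1818 normalized counts in T1 replicates 1 to 3 and 134, 171 and 110.4 in T2 replicates. All T1 libraries lay far above all T2 libraries, a 11.5-fold difference (log2 fold change 3.53, SE 0.17, limma adjusted p = 7.45e-08). Its near relative Adam19 (meltrin beta; chromosome 11, 46055992 to 46147343, plus strand) went the other way, with 354, 295 and 280.1 in T1 and 2229, 3032 and 1832 in T2 libraries. It was 7.63-fold lower in T1 cells (log2 fold change -2.90, SE 0.17, limma adjusted p = 2.85e-07), without overlap, with 8.25% of its exonic bases shared with another gene.

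The main sheddases differed less. Adam10, which sheds Notch receptors and cadherins (chromosome 9, 70678997 to 70780229, plus strand), had 2240.0, 2403 and 2521 in T1 and 4197, 4135 and 4697 in T2 libraries. The groups did not overlap, and Adam10 was 1.82-fold lower in T1 cells (log2 fold change -0.86, SE 0.08, limma adjusted p = 8.29e-06). Adam17, the converting enzyme of TNF and of several EGF receptor ligands (chromosome 12, 21323509 to 21373632, minus strand), had 1460.2, 1617 and 1691 in T1 and 1451, 1658 and 1710.1 in T2 libraries. The groups overlapped, and the log2 fold change of -0.01 had a 95% interval of -0.22 to 0.20 (limma adjusted p = 0.907), and its sign changed under quantile normalization and when 1 of 3 libraries was left out.

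Adam9, a widely expressed sheddase (chromosome 8, 24949611 to 25016927, minus strand), had 3049, 3542 and 4706 in T1 and 2211, 2429.6 and 2308 in T2 libraries, 1.63-fold higher in T1 cells without overlap (log2 fold change 0.68, limma adjusted p = 0.0014, or 0.0117 without the variance trend). Adam8, best known from leukocytes (chromosome 7, 139978932 to 139992562, minus strand), had 979, 1269 and 1427 in T1 and 1739, 1715 and 1937 in T2 libraries and was 1.47-fold lower in T1 cells (limma adjusted p = 0.00318), a call lost without the variance trend (0.0172), T2 replicate 1 (0.0118) or T2 replicate 3 (0.0194). Adam15 (metargidin; chromosome 3, 89338542 to 89349996, minus strand) had 1318, 1326 and 1384 in T1 and 1991, 2051 and 1919 in T2 libraries and was 1.48-fold lower in T1 cells (limma adjusted p = 9.46e-05). The groups of neither gene overlapped, although 20.6% of the exonic bases of Adam15 are shared with another gene, whose reads cannot be told apart without strand.

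Per kb of exon, Adam9 was the highest membrane ADAM of T1 cells, with a level of 915 ± 207, and Adam10 followed with 486 ± 28.7. In T2 cells the order was reversed, with 884 ± 62.7 for Adam10 and 563 ± 26.6 for Adam9. Adam17 (222 ± 16.5) and Adam15 (219 ± 5.83) in T1 cells, and Adam19 (332 ± 85.9) and Adam15 (323 ± 10.7) in T2 cells, were neighbours in level that did not differ beyond their spread. As a share of the summed membrane ADAM level, Adam9 took 39.5% ± 3.41 in T1 and 20.6% ± 0.346 in T2 cells, Adam10 21.3% ± 1.68 and 32.4% ± 2.37, Adam12 6.54% ± 0.203 and 0.479% ± 0.0983, and Adam19 1.94% ± 0.505 and 12.1% ± 2.91 (SD, n = 3).

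**Figure D4:**
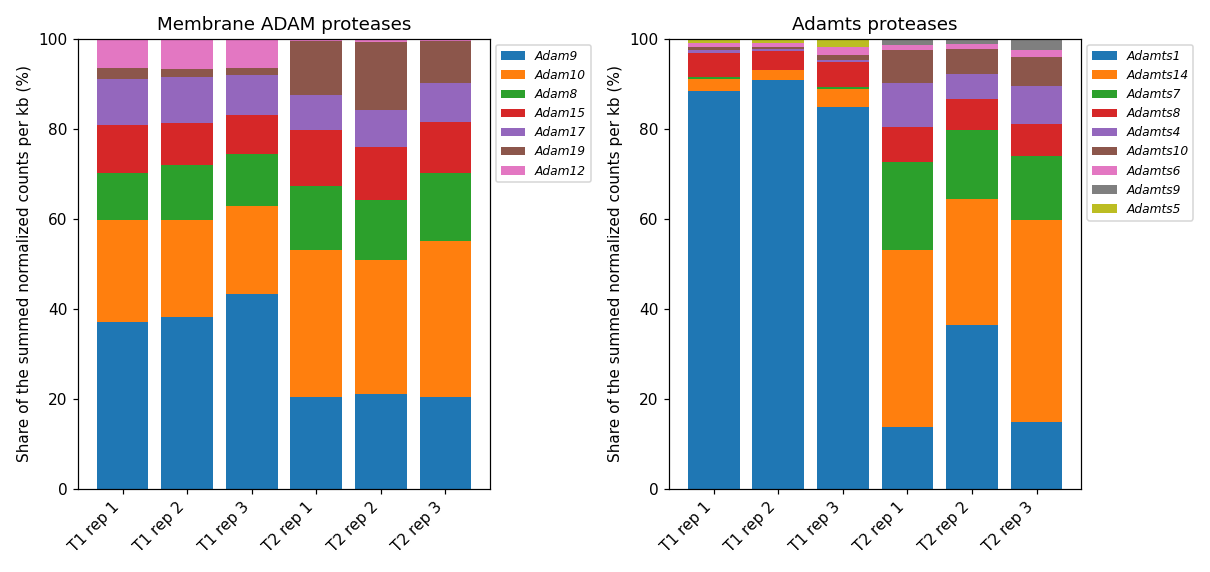
Share of each gene in the summed level per kb of the membrane ADAM genes and of the Adamts genes, in percent, for each of the 6 libraries. Adamts1 takes 84.8% to 90.8% of the Adamts level in T1 libraries and 13.7% to 36.3% in T2 libraries.

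The compared ADAM genes with other roles did not pass the test. Adam3 (cyritestin, a sperm protein) had 89.9, 94.9 and 83.0 in T1 and 78.3, 76.8 and 92.8 in T2 libraries, which overlapped (interval of the log2 fold change -0.29 to 0.51). Adam1a (fertilin alpha) had 18.0, 18.6 and 11.7 in T1 and 16.6, 23.5 and 26.9 in T2 libraries, which also overlapped (interval -1.18 to 0.28), and 63.7% of its exonic bases are shared with another gene. Adam11, an adhesion protein of neurons, had 42.3, 49.3 and 26.4 in T1 and 50.9, 66.6 and 67.7 in T2 libraries, which did not overlap, with a limma adjusted p of 0.0538.

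The secreted ADAMTS proteases differed in their sum as well as in their make-up. The summed level per kb of the 19 Adamts genes was 2729 ± 614 in T1 and 631 ± 124 in T2 cells, 4.32-fold higher in T1 cells. Adamts1 alone set this direction, since the other 18 genes summed to 316 ± 25.1 in T1 and 485 ± 7.89 in T2 cells (SD, n = 3). The proteases that cut hyalectans, the large hyaluronan-binding proteoglycans such as aggrecan and versican, held 94.7% ± 1.87 of the Adamts sum in T1 and 38.4% ± 9.97 in T2 cells. Their sum was 2591 ± 627 in T1 and 251 ± 118 in T2 cells, 10.3-fold higher in T1 cells and 14.2-fold without T2 replicate 2, and without Adamts1 it was 178 ± 5.92 and 104 ± 1.74.

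Adamts1, the first described ADAMTS protease (chromosome 16, 85793827 to 85803113, minus strand), had 11765, 16484 and 10129.9 in T1 and 402, 1492 and 442 in T2 libraries. The groups were far apart, but T2 replicate 2 stood above the other T2 libraries. In that library 106 of 11514 genes (0.921%) were more than 2-fold above both other replicates, and Adamts1 was the only compared member among them. Adamts1 was 16.4-fold higher in T1 cells with all libraries (log2 fold change 4.28, SE 0.41, limma adjusted p = 8.99e-06). Without T2 replicate 2 it was 30.3-fold higher. Its share of the Adamts level was 88.0% ± 3.03 in T1 and 21.6% ± 12.8 in T2 cells, or 14.2% in T2 cells without T2 replicate 2.

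Adamts5 (aggrecanase-2; chromosome 16, 85856173 to 85901828, minus strand) lies 53.1 kb from Adamts1 on the same strand with no coding gene between them. It had 259, 314 and 430.4 normalized counts in T1 libraries and 0 reads in all T2 libraries. Its level in T1 cells was at least 114-fold higher, taking 3 reads per library as the limit for a count of 0 (limma adjusted p = 1.5e-08). Adamts8 (chromosome 9, 30942562 to 30963838, plus strand) had 623, 638 and 577 in T1 and 199.8, 249.8 and 186 in T2 libraries and was 2.89-fold higher in T1 cells without overlap (limma adjusted p = 5.21e-06), with 10.6% of its exonic bases shared with another gene, while its neighbour Adamts15, 20.1 kb away on the other strand, had no read.

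The remaining hyalectan-cleaving genes went the other way. Adamts4 (aggrecanase-1; chromosome 1, 171250421 to 171260637, plus strand) had 67.7, 82.8 and 53.7 in T1 and 259, 207 and 232 in T2 libraries and was 3.42-fold lower in T1 cells (log2 fold change -1.77, SE 0.19, limma adjusted p = 2.42e-05). Adamts9, a versican-cutting protease (chromosome 6, 92772699 to 92943492, minus strand), had 0, 0 and 3 reads in T1 libraries and 107, 129 and 208 normalized counts in T2 libraries. The ratio of T2 to T1 was 151 with a 95% counting interval of 51.5 to 737 (limma adjusted p = 3.45e-06), and 9.18% of its exonic bases are shared with another gene. The pair of aggrecanases therefore differed in opposite directions, Adamts5 being read only in T1 libraries and Adamts4 being higher in T2 libraries.

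Outside the hyalectan group, 3 of 4 compared Adamts genes were lower in T1 cells, where 24.4% of all genes compared were. Adamts14, which removes the N-propeptide of procollagens (chromosome 10, 61197112 to 61273438, minus strand), had 359.8, 384 and 466 in T1 and 1135, 1130.3 and 1319 in T2 libraries and was 2.96-fold lower in T1 cells (limma adjusted p = 2.01e-06). Its relatives Adamts2 and Adamts3 had no read, and Adamts14 took 37.5% ± 8.62 of the Adamts level of T2 cells and 2.96% ± 0.926 of that of T1 cells. Adamts7, known for cutting cartilage oligomeric matrix protein (chromosome 9, 90163069 to 90208071, plus strand), had 72.0, 32.5 and 69.3 in T1 and 685, 744 and 502 in T2 libraries. It was 11.1-fold lower in T1 cells without overlap (log2 fold change -3.52, SE 0.29, limma adjusted p = 2.82e-06).

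Adamts6 and Adamts10 are close relatives tied to fibrillin microfibrils, and they differed in opposite directions. Adamts6 (chromosome 13, 104287835 to 104496695, plus strand) had 157, 246 and 328 in T1 and 51.9, 68.6 and 68.7 in T2 libraries, 3.86-fold higher in T1 cells (limma adjusted p = 0.000118). Adamts10 (chromosome 17, 33524204 to 33553782, plus strand) had 146, 143 and 187 in T1 and 336, 352 and 294 in T2 libraries, 2.06-fold lower in T1 cells (limma adjusted p = 0.000183). Neither gene had overlapping groups.

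Among the ADAMTS-like genes, Adamtsl4, a fibrillin-binding protein (chromosome 3, 95676201 to 95687917, minus strand), had 37.0, 36.3 and 34.2 in T1 and 466, 509 and 455 in T2 libraries. The replicates lay close together and it was 13.3-fold lower in T1 cells (log2 fold change -3.70, SE 0.15, limma adjusted p = 2.55e-08). Adamtsl3 (chromosome 7, 82335694 to 82614450, plus strand) had 99.5, 116 and 149 in T1 and 256, 232 and 290.4 in T2 libraries and was 2.13-fold lower in T1 cells (limma adjusted p = 0.00038). Adamtsl5 (chromosome 10, 80339110 to 80348412, minus strand) was the ADAMTS-like gene higher in T1 cells, with 395, 418 and 445 in T1 and 103, 77.8 and 77.9 in T2 libraries, a 4.86-fold difference (limma adjusted p = 9.17e-07).

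Genes that act on these proteases or are cut by them were taken from 7 lists of 73 genes, of which 46 were compared. Of these, 11 (23.9%) were higher in T1 cells, close to the 25.1% of all genes, and 21 (45.7%) were lower, against 24.4%. The ligands of the EGF receptor that ADAMs shed were lower in T1 cells in 4 of 5 compared genes, with a median log2 fold change of -2.35. Betacellulin (Btc) had 58.2, 53.9 and 65.4 normalized counts in T1 and 2473, 2045 and 2339 in T2 libraries and was 38.6-fold lower in T1 cells (limma adjusted p = 1.22e-09). Tgfa was 9.07-fold lower, at 990.5 ± 86.6 in T1 and 8984 ± 314 in T2 cells, and Areg 5.13-fold lower, at 808 ± 78.7 and 4147 ± 688 (SD, n = 3). Epgn was the ligand higher in T1 cells, at 64.7 ± 8.43 against 6.16 ± 0.916. Of the 7 compared membrane ADAM genes, Adam9 and Adam12 were higher in T1 cells and Adam8, Adam10, Adam15 and Adam19 lower. Adam17 did not pass the test. Which of them cut these ligands in these cells was not tested.

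Metalloprotease inhibitors, a wider class than inhibitors of these proteases, were lower in T1 cells in 3 of 3 compared genes, against 24.4% of all genes. Timp2 had 8096 ± 105 in T1 and 14329.6 ± 1118 in T2 cells, Timp1 2009 ± 277 and 4103 ± 664, and Reck 48.0 ± 7.68 and 139 ± 42.5. Timp3, the inhibitor best known for acting on ADAM17 and the aggrecanases, reached at most 1.95 normalized counts in a T1 library and 0 in T2 libraries.

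Of 11 compared genes for ADAM maturation and trafficking, 2 (18.2%) were higher and 3 (27.3%) lower in T1 cells, shares near the 25.1% and 24.4% of all genes. Pcsk6, a proprotein convertase that removes propeptides, had 265, 321 and 234 in T1 libraries and 3, 0 and 0 reads in T2 libraries, a ratio of 281 with a 95% counting interval of 95.9 to 1366. Furin, the convertase of wide use, had a log2 fold change of -0.00438 (limma adjusted p = 0.963). Tspan15 (139 ± 14.8 in T1, 415 ± 46.8 in T2 cells) and Tspan5 (981 ± 27.4, 2051 ± 116), tetraspanins that escort ADAM10, were lower in T1 cells, as Adam10 was, while Tspan33 was higher (17.2 ± 6.11, 2.93 ± 1.70). Of the ADAM17 partners, Frmd8 was lower in T1 cells (log2 fold change -0.52), and Rhbdf1 (0.10) and Rhbdf2 (0.26) did not pass the test.

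Of 4 genes for the secretion and clearance of ADAMTS proteins, 3 were lower in T1 cells, where 24.4% of all genes compared were. Lrp1, the endocytic receptor of aggrecanases, had 2892 ± 684 in T1 and 7606 ± 693 in T2 cells, and B3glct, which adds glucose to thrombospondin repeats, 425 ± 27.1 and 1036 ± 129. Pofut2, which adds the fucose before it, had a log2 fold change of -0.08 (limma adjusted p = 0.418).

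For the lists that follow, 25.1% of all genes compared were higher in T1 cells and 24.4% lower. Among the matrix substrates of ADAMTS proteases, 4 of 6 compared genes were higher in T1 cells and 1 lower, and 5 of the 19 listed had no read. Thbs1 had 51718 ± 4851 in T1 and 2849.6 ± 144 in T2 cells, and Fn1 91862 ± 13942 and 12593 ± 3716, while Ltbp1 was lower in T1 cells, at 5938 ± 721 and 10224 ± 405. The hyalectans themselves were scarce: Acan and Ncan had no read, and Vcan stayed between 3.07 and 10.6 normalized counts in the 6 libraries. Of 10 compared adhesion molecules shed by ADAMs, 4 were higher in T1 cells, among them Cxcl16 (1308, 1369 and 1035 in T1 libraries, 14.7, 22.5 and 25.1 in T2 libraries), and 4 lower, among them Cx3cl1 (379 ± 56.4, 2981 ± 86.8) and Alcam (278 ± 75.4, 2123 ± 143). Of 7 compared receptors and cytokines, 3 were lower in T1 cells, with Il6ra at 266 ± 17.6 in T1 and 1183 ± 44.9 in T2 cells, and 0 higher.

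**Figure D5:**
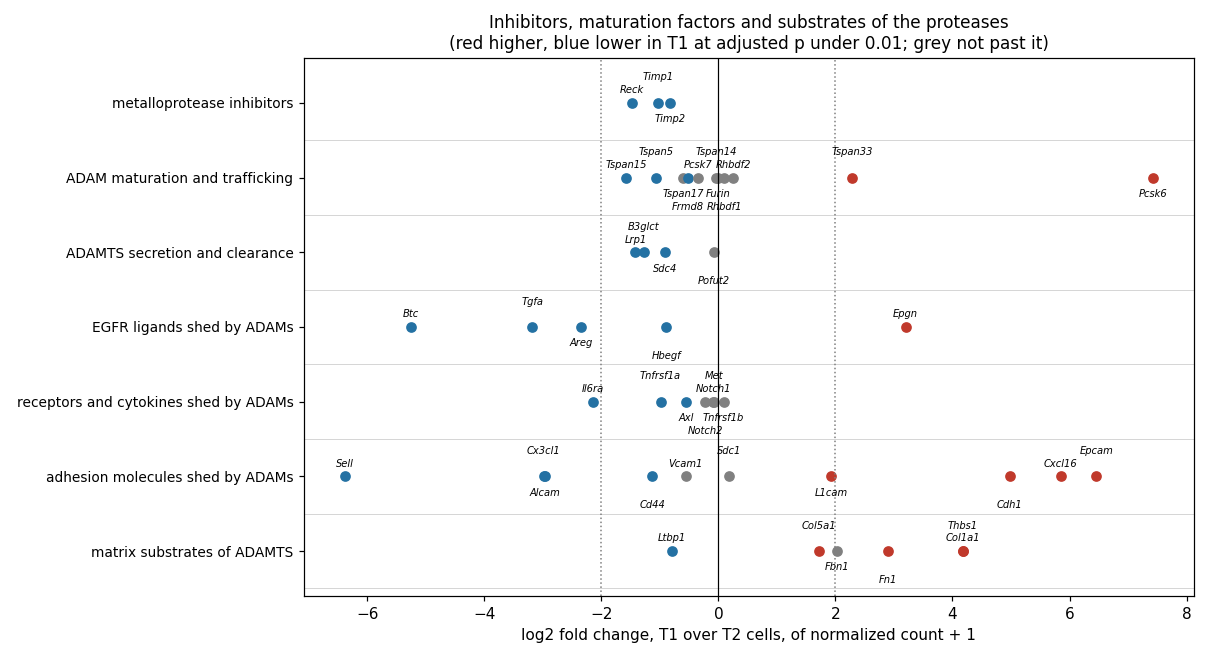
Log2 fold change of T1 against T2 for the compared genes of each partner list, 1 point per gene, values above 0 being higher in T1 cells. The EGF receptor ligands lie mostly below 0 and the matrix substrates mostly above.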

How the data were processed

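Poly(A) RNA of 3 T1 and 3 T2 replicates was analysed. The authors trimmed reads with Trimmomatic, aligned them to mm10 with TopHat2, counted them with HTSeq and divided the counts by DESeq2 size factors, and the deposited signal is that quotient. Annotation, strand setting and versions are not given in the sources used here. Within a tolerance of 0.05, 100% of values were whole reads after multiplication by the size factor. Members and gene lists were chosen with earlier results of these data known.

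The populations were compared with limma 3.58.1 (R 4.3.3) after adding a pseudocount of 1 and taking log2, for genes whose mean reached 10 normalized counts, with Benjamini-Hochberg adjustment. Calls needed an adjusted p under 0.01, or also an absolute log2 fold change above 2, as in the study. Of 11514 genes, limma called 5701 by the first rule, and on the recovered reads edgeR 4.0.16 called 5716 and DESeq2 1.42.0 called 6067. The code was tested on simulated data. The replicates are called independent and the study's methods speak of biological replicates for its experiments in general, without saying whether these RNA samples came from separate cultures. P-values measure the spread between these samples, which may be partly technical. Named were all members compared, others with at least 10 reads in a library, and from each partner list up to 3 genes per direction with the largest change, plus known cofactors. Genes that share exons or close copies (Adam1a and Adam1b, Adam6a and Adam6b, Adam26a and Adam26b) are uncertain. Positions and exon lengths came from GENCODE M21, in which all 57 members were found. Counting intervals and floors cover counting error only, whereas the limma intervals of log2 fold changes rest on the spread between replicates. Alternatives covered the pseudocount, filter, scaling, test, threshold, a replicate term and leaving out each replicate.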

Additional observations from a re-analysis of the deposited data

How the results depend on the processing

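Over all alternatives, 6 to 7 members were higher and 10 to 12 lower in T1 cells, and 4 to 5 in each direction passed both filters. With each replicate left out in turn, these were 7 higher, 10 to 11 lower, 4 to 5 higher past both filters and 4 lower past both filters, with 10 to 12 partner genes higher and 21 lower. The members' median log2 fold change ranged from -0.62 to -0.50 when a replicate was left out, and moved to -0.45 without the filter on low counts, where 33 members entered. Of 373 fold changes of single members under the alternatives, 365 kept their direction and side of the threshold. Adam17, never past the threshold, ranged from -0.0856 to 0.0457 when a replicate was left out and changed sign 4 times, to 0.0106 with quantile normalization, 0.0457 without T1 replicate 1, 0.0103 without T2 replicate 2 and 0.0328 without T2 replicate 3. Adam8 lost its call without the variance trend and without T2 replicate 1 or 3, and Adam9 without the trend. Leaving out T2 replicate 2 raised the fold of Adamts1 from 16.4 to 30.3. The log2 fold change of Adamts5 ranged from 6.06 to 11.42 and that of Adamts9 from -7.23 to -4.66, both genes having libraries with 0 reads. With the replicate number as a block, 7 members were higher and 11 lower, 4 passed both filters in each direction, 11 partner genes were higher and 22 lower, and the median was -0.57. Deviations of same-numbered samples correlated at 0.0575 to 0.172, so the numbers were not taken to pair the samples, although 5 of 6 samples correlated best with their own number. Without the filter, Adam33 was also lower in T1 cells (log2 fold change -2.34, limma adjusted p = 0.00493).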

Other observations

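On chromosome 8, Adam18, Adam3, Adam5, Adam32 and Adam9 stand in a row on the minus strand, 0.806 to 11.8 kb apart and with no other coding gene between them. Adam9 had 3766 ± 851 normalized counts in T1 and 2316 ± 110 in T2 cells (SD, n = 3), and Adam3 89.3 ± 5.98 and 82.6 ± 8.83. Adam18, Adam5 and Adam32, which lie on both sides of Adam3, averaged at most 5.70 in either population. Elsewhere on the chromosome, Adam24, Adam25, Adam20 and Adam39 stand in a row 25.7 to 70.0 kb apart, and none of them had a read.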
